A study of Mus musculus with 14 samples.

Results

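The miR-17 to miR-92a cluster is a group of microRNAs (miRNAs) that are cut from 1 primary transcript. It was followed in exosomes and cell lysates of mouse macrophages grown from bone marrow. The members were taken by name, as the 9 lines of the count table for mmu-miR-17-5p, mmu-miR-17-3p, mmu-miR-18a-5p, mmu-miR-18a-3p, mmu-miR-19a-3p, mmu-miR-20a-5p, mmu-miR-20a-3p, mmu-miR-19b-3p and mmu-miR-92a-3p (written below without mmu-, the prefix for mouse), out of 1250 lines in all. No measured value entered that choice. Small RNA libraries were made from exosomes of control macrophages (4 libraries), exosomes of IL4-stimulated macrophages (4), lysates of control macrophages (3) and lysates of IL4-stimulated macrophages (3). IL4 is a signalling protein of type 2 immunity under which macrophages take up their alternatively activated state, and exosomes are vesicles shed by cells, here recovered from the culture medium by density gradient. The controls are labelled wild type, all libraries name bone marrow as their source, and the titles of the stimulated ones name IL4. Strain, sex, age, the dose of IL4 and the time of exposure were not in the labels used. Each title carries a date, and within exosomes or lysates each date held 1 IL4 and 1 control library. The exosome dates were 25 January, 16 March, 5 April and 29 December (of the year before), numbered 1 to 4 below, and the lysate dates were 23 January, 14 March and 21 March, numbered 1 to 3.

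Animal miRNAs are cut in the nucleus from a long transcript into hairpins and then in the cytoplasm into short duplexes, of which usually 1 strand, or arm, is kept by an Argonaute protein. The bases near the 5′ end, the seed, pair with target messages, so miRNAs with 1 seed have overlapping targets. The cluster is induced by MYC and E2F factors, favours proliferation and survival, and is known to fall as myeloid progenitors mature into monocytes and macrophages. Members of a shared transcript can still differ in amount, since each hairpin is cut and each mature miRNA is kept or lost at its own rate. This much is background and was not measured here.

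The mature sequences follow because the members fall into seed groups that cut across their order on the transcript, and because close relatives differ by few bases. They are RefSeq sequences on GRCm38.p6, found for 9 of 9 members, written 5′ to 3′ with the seed (bases 2 to 8) in capitals.
miR-17-5p: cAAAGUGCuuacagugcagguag
miR-20a-5p: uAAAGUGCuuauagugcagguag
miR-18a-5p: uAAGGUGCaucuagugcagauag
miR-19a-3p: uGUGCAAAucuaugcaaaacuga
miR-19b-3p: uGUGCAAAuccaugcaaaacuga
miR-92a-3p: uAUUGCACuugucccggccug
miR-17-3p: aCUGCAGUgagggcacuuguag
miR-18a-3p: aCUGCCCUaagugcuccuucug
miR-20a-3p: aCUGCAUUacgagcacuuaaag

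miR-17-5p and miR-20a-5p share the seed AAAGUGC and differ by C1U and C12U, with positions counted from 1 at the 5′ end and the base of the first-named miRNA written first. miR-18a-5p has the near seed AAGGUGC. miR-19a-3p and miR-19b-3p share GUGCAAA and differ by U11C alone, and miR-92a-3p has AUUGCAC. The 6 hairpins lie within 836 bases of the plus strand, at chr14:115043671-115044506 of GRCm38, in the order Mir17, Mir18, Mir19a, Mir20a, Mir19b-1 and Mir92-1. All 6 are inside the last exon (chr14:115043271-115046727) of the long non-coding RNA gene Mir17hg (chr14:115042879-115046727), which is exon 2 of its annotated transcript. The Mir17 and Mir20a hairpins, with both arms in capitals, show how each of them gives a pair of members.
Mir17: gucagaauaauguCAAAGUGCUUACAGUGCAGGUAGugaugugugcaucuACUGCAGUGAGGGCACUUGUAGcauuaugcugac
Mir20a: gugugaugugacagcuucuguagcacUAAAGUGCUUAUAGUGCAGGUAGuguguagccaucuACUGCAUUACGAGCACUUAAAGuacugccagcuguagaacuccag
The sequences of miR-19b-3p and miR-92a-3p are also encoded on the minus strand of chromosome X, at chrX:52741991-52742013 and chrX:52741854-52741874.

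The table of counts was far deeper for lysates (3941480 to 6792079 counts per library) than for exosomes (28417 to 411671). On the CPM scale, which divides each count by its library's total, 1 count was worth 2.43 to 35.2 CPM in exosomes, so the rarer arms rest there on a few counts. The myeloid markers fixed as a check of the label (miR-223, miR-142a, miR-155 and miR-146a arms, 6 lines) were all found, and none was at 0 in any group. Their summed share of counts was 3.49% ± 0.52 (SD, n = 4) in control exosomes and 3.33% ± 0.17 (SD, n = 3) in control lysates, and 2.06% ± 0.21 (SD, n = 4) and 1.53% ± 0.35 (SD, n = 3) with IL4. Markers of other cell types were higher in exosomes. The 4 erythroid lines found of 5 listed summed to 2.18% to 5.53% of counts in exosome libraries and to 0.0117% to 0.0211% in lysates, with none at 0. The 2 endothelial lines (0.410% to 2.75%) and the 7 epithelial lines (0.0360% to 10.5%) of exosomes also lay above their lysate ranges (0.00134% to 0.00339% and 0.0161% to 0.0267%). The lymphocyte marker miR-150-5p and the 4 stromal lines were likewise higher (0.0639% to 0.187% against 0.000939% to 0.00281%, and 0.116% to 0.345% against 0.00146% to 0.0357%). At 0 was 1 epithelial line in each lysate group, and no line of these lists elsewhere. For lysates, which are bulk RNA, fewer cells of a type and less RNA per cell cannot be told apart. The origin of these marker counts in exosome libraries was not tested. Nothing in the labels ties the libraries of a group to different mice or dishes. Every p-value below therefore refers to library-to-library spread, which could be technical alone.

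miR-92a-3p, the last miRNA of the transcript, was by far the most abundant member in every library. In control lysates it was at 19204, 9404 and 10340 CPM in replicates 1 to 3, and in IL4 lysates at 22202, 10195 and 7861 CPM. In control exosomes it was at 24809, 29330, 24253 and 19056 CPM in replicates 1 to 4, and in IL4 exosomes at 18568, 28160 and 23813 CPM in replicates 1 to 3 and at 17373 CPM in replicate 4. The exosome libraries overlapped the lysates only through the pair of 23 January, whose levels were about as high as those of exosomes. By mean CPM it ranked 8 among all 1250 lines in control exosomes and 15 in control lysates, whereas miR-17-5p ranked 90 and 53.

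miR-20a-5p and miR-17-5p, which share a seed, came next and could not be ordered. In control lysates miR-20a-5p averaged 1650 ± 838 CPM and miR-17-5p 1594 ± 743 CPM (SD, n = 3), and in control exosomes 1278 ± 405 and 999.8 ± 217 CPM (SD, n = 4). miR-19b-3p followed with 611 ± 270 CPM in control lysates and 599 ± 244 CPM in control exosomes, then miR-18a-5p with 312 ± 104.5 and 338 ± 63.0 CPM. miR-17-3p (179 ± 65.1 CPM in control lysates) and miR-19a-3p (153 ± 49.4 CPM) did not differ beyond their spread. miR-18a-3p (44.6 ± 20.4 CPM) and miR-20a-3p (13.1 ± 2.66 CPM) were the lowest members. All these are levels on the CPM scale of miRNAs of 21 to 23 bases, and how well each sequence is captured into a library was not measured.

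**Figure D1:**
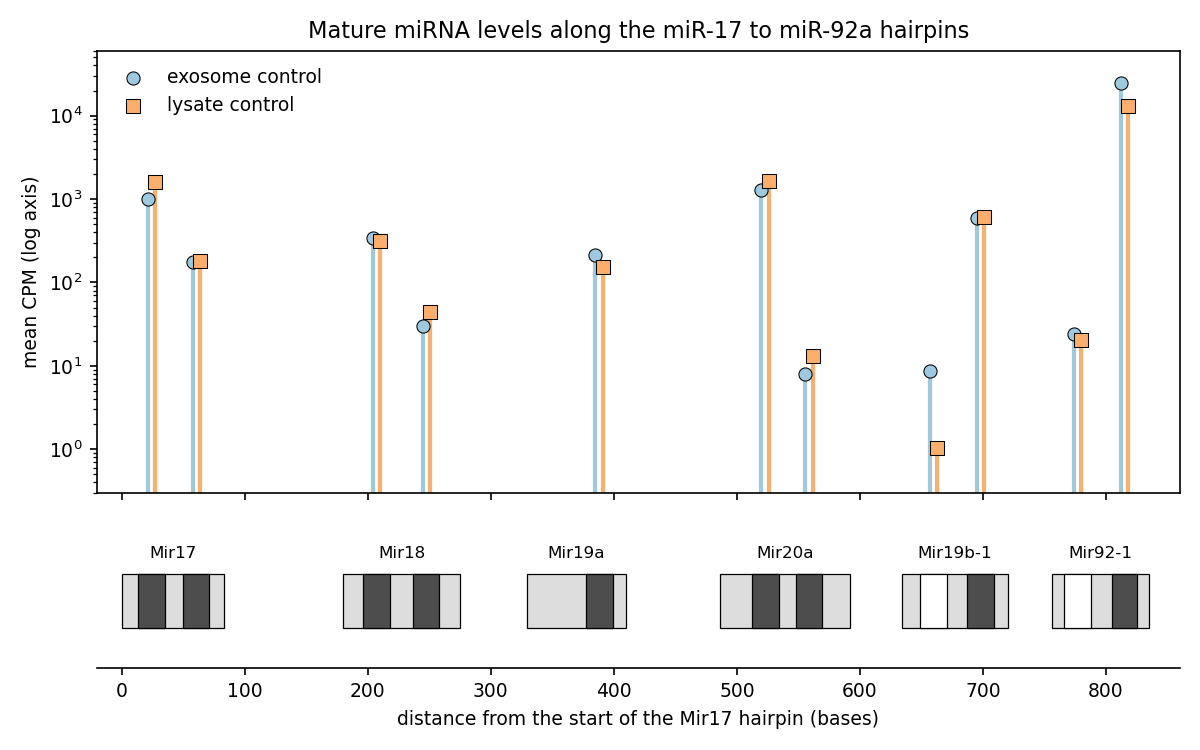
Mean CPM (log axis) of control exosomes (circles, n = 4) and control lysates (squares, n = 3) for each arm, over a map of the 6 hairpins by distance in bases from the start of Mir17. Filled boxes are the 9 members and white boxes the other arms miR-19b-1-5p and miR-92a-1-5p. miR-19a-5p also has a line in the table but is not drawn. The last arm, miR-92a-3p, stands above all others in both compartments. Within each of Mir17, Mir18 and Mir20a the arms differ from each other by more than either differs between the compartments.

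**Figure D2:**
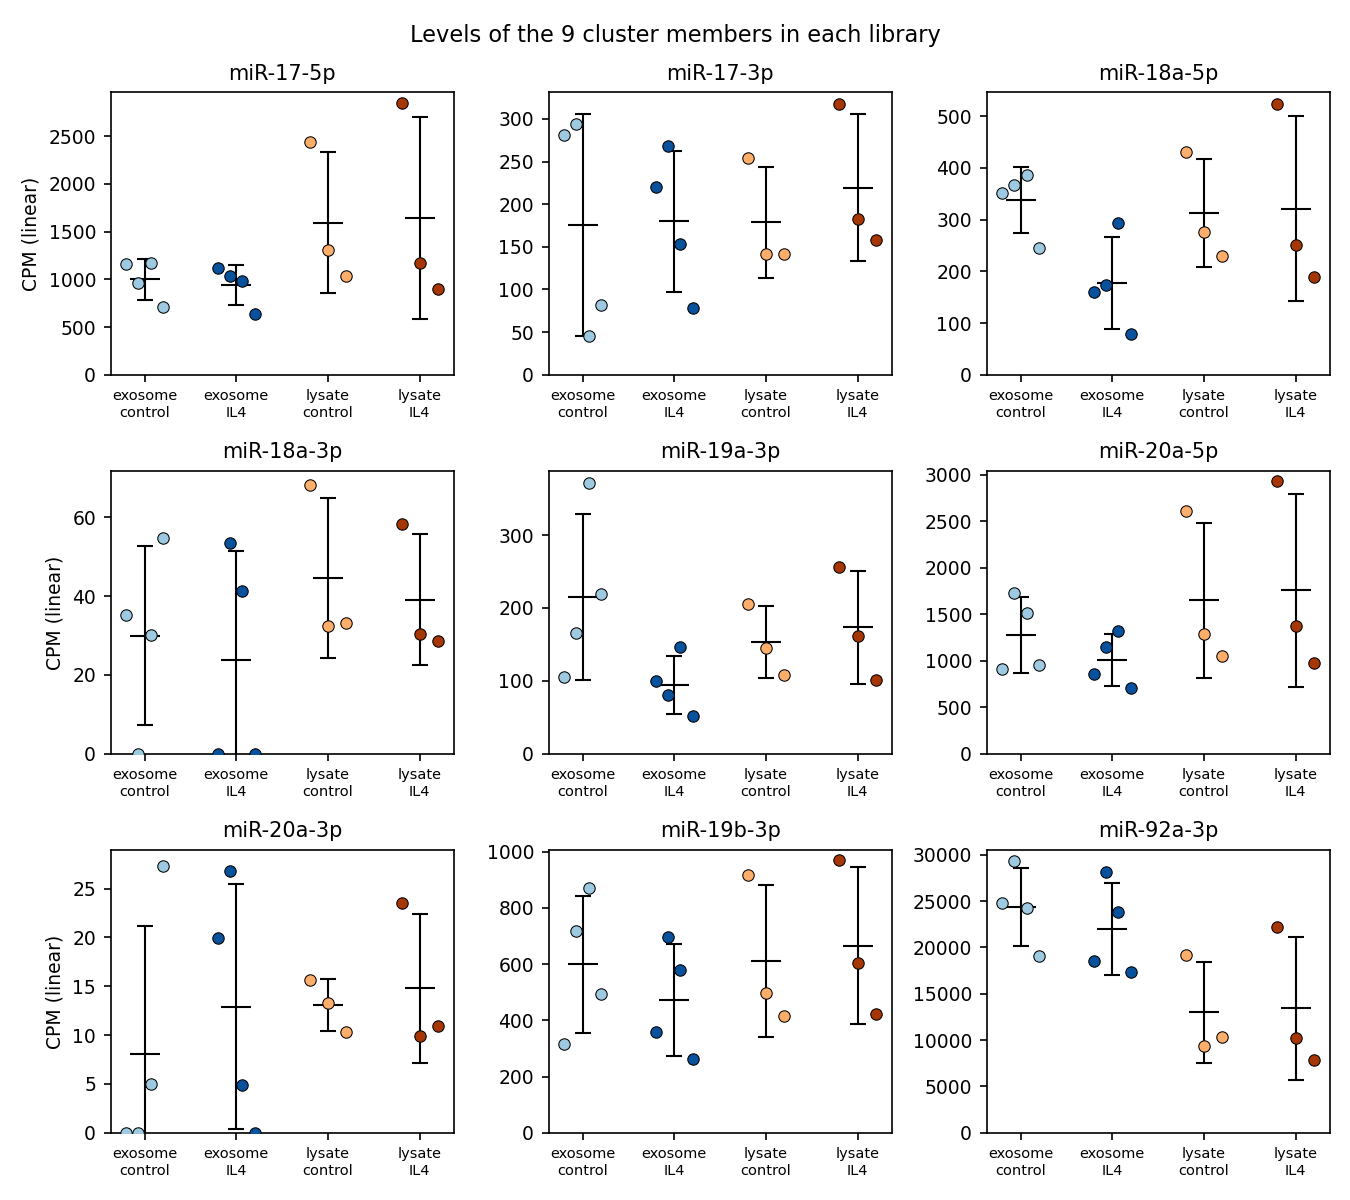
CPM (linear axes from 0, a scale for each panel) of the 9 members in each library, as points in the order of replicate numbers, with the group mean and SD as bars. In lysates the first point of both groups, the 23 January library, is the highest for all 9 members.

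Exosomes and lysates held the cluster in different proportions. The 9 members made up 2.80% ± 0.48 of all counts in control exosomes and 2.49% ± 0.57 in IL4 exosomes (SD, n = 4), against 1.75% ± 0.74 in control and 1.83% ± 1.04 in IL4 lysates (SD, n = 3), and these ranges overlapped. Within the cluster, miR-92a-3p took 84.7% to 90.6% of the counts in the 8 exosome libraries and 71.7% to 77.3% in the 6 lysates, with no overlap. miR-17-5p took 3.59% ± 0.64 in control exosomes and 9.02% ± 1.15 in control lysates, and miR-20a-5p took 4.52% ± 0.92 and 9.23% ± 1.17. The shares of IL4 samples were near those of their compartment's controls (miR-92a-3p 88.4% ± 1.77 in exosomes and 73.5% ± 0.50 in lysates). These shares are descriptions with no test, and since they sum to the whole, a higher share of miR-92a-3p lowers all others.

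The ratio of miR-92a-3p to miR-17-5p counts in a library needs no scaling between libraries and so does not depend on how the compartments are scaled. In control exosomes it was 21.4, 30.7, 20.7 and 26.8 in replicates 1 to 4, and in IL4 exosomes 16.6, 27.3, 24.2 and 27.2. In lysates it was 7.88, 7.18 and 9.98 in controls and 7.79, 8.68 and 8.74 with IL4. Every exosome library lay above every lysate. The geometric mean was 23.8 in exosomes and 8.33 in lysates, a difference of 1.51 on the log2 scale (2.85-fold; 1.56 in control and 1.47 in IL4 samples). In a two-sided exact permutation test within control and within IL4 samples (n = 8 and 6), p was 0.000816, the smallest this design can give, and 0.0131 after Benjamini-Hochberg adjustment over the 16 ratio tests. Without the 23 January lysates the difference was 1.47, and without the 25 January exosomes, which had the highest epithelial marker shares, it was 1.63. Adjusted p, which also depends on the other ratio tests, was then 0.0711 and 0.0800 and did not pass the threshold. The unadjusted p was each time the smallest the remaining libraries allow. Libraries of 1 date also deviated together, and the test above treats them as independent. With the mean of each date as the unit, 4 exosome dates against 3 lysate dates, p was 0.0286 (exact permutation test, the smallest that split allows). The adjusted p was 0.229. Since IL4 tests in lysates, which cannot go below 0.1, are among the 16, an adjusted p at or under 0.05 was out of reach. It therefore cannot decide whether the difference holds with dates as units.

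That separation was not peculiar to miR-92a-3p. Of the 126 lines other than miR-17-5p with at least 5 counts in every library, miR-92a-3p among them, 34 (27.0%) had a ratio over miR-17-5p that was higher in all exosomes than in all lysates, and 0 had one that was lower in all. When these lines and miR-17-5p, 127 in all, were ordered by their difference in log2 CPM between exosomes and lysates, miR-17-5p was rank 10 from the lowest, with 7.09% of lines lower. miR-20a-5p was rank 19, miR-18a-5p rank 26 and miR-19b-3p rank 33. miR-92a-3p was rank 88, with 68.5% of lines lower. The members therefore spread over this order, with miR-17-5p near its low end and miR-92a-3p above its middle. The floor of 5 counts bears unequally on the compartments. In the smallest exosome library 1 count was worth 35.2 CPM, and in lysates at most 0.254 CPM. Lines rare in exosomes were thus left out more than lines rare in lysates. These ranks and shares hold only among the lines kept, and the 0 lines lower in all may follow in part from that floor.

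The other ratios to miR-17-5p overlapped between exosomes and lysates taken as a whole. Their mean log2 difference was 0.13 for miR-20a-5p, 0.36 for miR-19b-3p and 0.30 for miR-18a-5p (exact permutation tests, adjusted p 0.533 to 0.727). These averages hide unequal values with and without IL4. For miR-18a-5p the difference was 0.78 in control and -0.17 in IL4 samples, for miR-19b-3p 0.58 and 0.15, and for miR-20a-5p 0.29 and -0.04. In control samples alone the miR-18a-5p ratio did not overlap, at -1.67 to -1.36 in exosomes and -2.50 to -2.17 in lysates. Of the 126 lines, 42.9% had a ratio that was likewise higher in every control exosome library than in every control lysate. That single stratum was not tested on its own. The miR-20a-5p ratio varied little among lysates, from -0.02 to 0.22 in log2, and more among exosomes, from -0.38 to 0.85. It rested on as few as 26 counts of 1 miRNA in an exosome library, against 4622 or more in lysates. Counting error is therefore larger in exosomes, and its part in that spread was not tested. miR-19a-3p fell under 5 counts in some exosome libraries, so its ratio was not tested there.

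**Figure D3:**
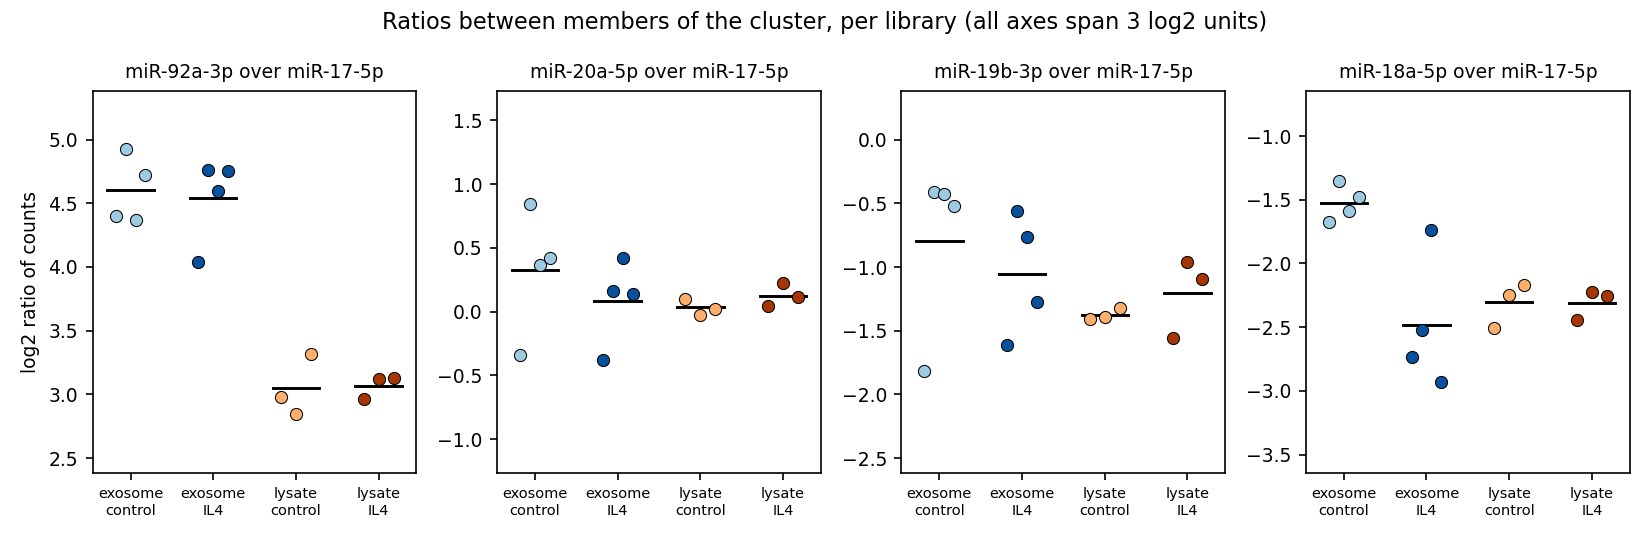
Log2 ratio of counts in each library for 4 pairs of members, by group, with the group mean as a bar; every axis spans 3 log2 units. For miR-92a-3p over miR-17-5p the 8 exosome points (4.04 to 4.93) lie above the 6 lysate points (2.84 to 3.32), while the other pairs overlap between the compartments as a whole.

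Fold changes between exosomes and lysates depend on scaling, and they are given on edgeR's TMM scale. That scale assumes that most lines do not differ between libraries. On it miR-17-5p and miR-20a-5p were lower in control exosomes than in control lysates, and miR-92a-3p was not. miR-17-5p was at 1161, 956, 1171 and 711 CPM in control exosome replicates 1 to 4 and at 2437, 1310 and 1036 CPM in control lysates. Its log2 fold change was -1.40 (SE 0.32, edgeR adjusted p 0.00219), and that of miR-20a-5p was -1.10 (SE 0.30, adjusted p 0.00675). CPM of the groups overlapped for both and for every other member tested. Over all lines 27.2% did not overlap and were higher in exosomes, and 10.4% lower. The log2 fold change of miR-92a-3p was 0.18 (SE 0.24, 95% interval -0.34 to 0.69, adjusted p 0.560). Of the 8 members tested in control samples (miR-20a-3p had too few counts), 2 were called lower and 0 higher. Over all 338 lines 21.6% were called lower, 29.3% higher and 50.9% either way. A call was therefore common, and the assumption of the TMM scale may not hold here. The median over the 8 members was -0.82, and over all lines -0.18.

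With IL4, the miRNAs of 3 seed groups were called lower in exosomes than in lysates. These were miR-20a-5p at -1.39 (SE 0.30, edgeR adjusted p 0.00172), miR-17-5p at -1.35 (SE 0.32, 0.00308), miR-18a-5p at -1.42 (SE 0.36, 0.00476), miR-19a-3p at -1.43 (SE 0.41, 0.00909) and miR-19b-3p at -1.12 (SE 0.33, 0.0120). That is 5 of 8 tested, against 19.2% of all 338 lines called lower, 30.2% higher and 49.4% either way. CPM of the groups overlapped for all 8, against 28.7% of lines that did not overlap and were higher and 7.69% that were lower. miR-92a-3p was at 0.12 (SE 0.24, interval -0.39 to 0.63, adjusted p 0.701). The median over the 8 members was -1.25, and over all lines -0.01.

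The level of these folds, unlike the ratios above, moved with the scaling and with single libraries. Scaled to library totals alone, the median of all lines moved by 0.80 in control and 0.69 in IL4 samples. Then 1 member was called in control samples, miR-92a-3p as higher (0.91, adjusted p 0.0468), and 0 members with IL4. The split of all calls went from 29.3% of lines higher and 21.6% lower to 37.3% and 4.73% in control samples, and from 30.2% and 19.2% to 37.9% and 3.55% with IL4. The members' median relative to that of all lines was -0.65 and -0.69 under the 2 scalings in control samples. In IL4 samples it was -1.24 and -1.32. A change of scaling shifts all lines nearly alike, so this likeness was fixed in advance. With 1 library left out, the same difference ran from -0.80 to -0.38 in control and from -1.40 to -0.87 in IL4 samples. Without both lysates of 23 January it was -0.31 and -0.95. Without IL4 lysate replicate 1, the count of members called with IL4 was 0, and without IL4 lysate replicate 2 or IL4 exosome replicate 4 it was 3. Without control lysate replicate 1 or control exosome replicate 1 or 3, the count in control samples was 1. Without both lysates of 23 January, miR-17-5p alone was called in control samples (-1.09), and with IL4 miR-20a-5p was lower (-0.86, adjusted p 0.0439) and miR-92a-3p higher (0.64, adjusted p 0.0439). The shares of erythroid, endothelial and epithelial markers given above differ between the same groups, and their part in these results was not tested. Dates of exosomes and lysates were never shared, so date and compartment cannot be told apart.

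**Figure D4:**
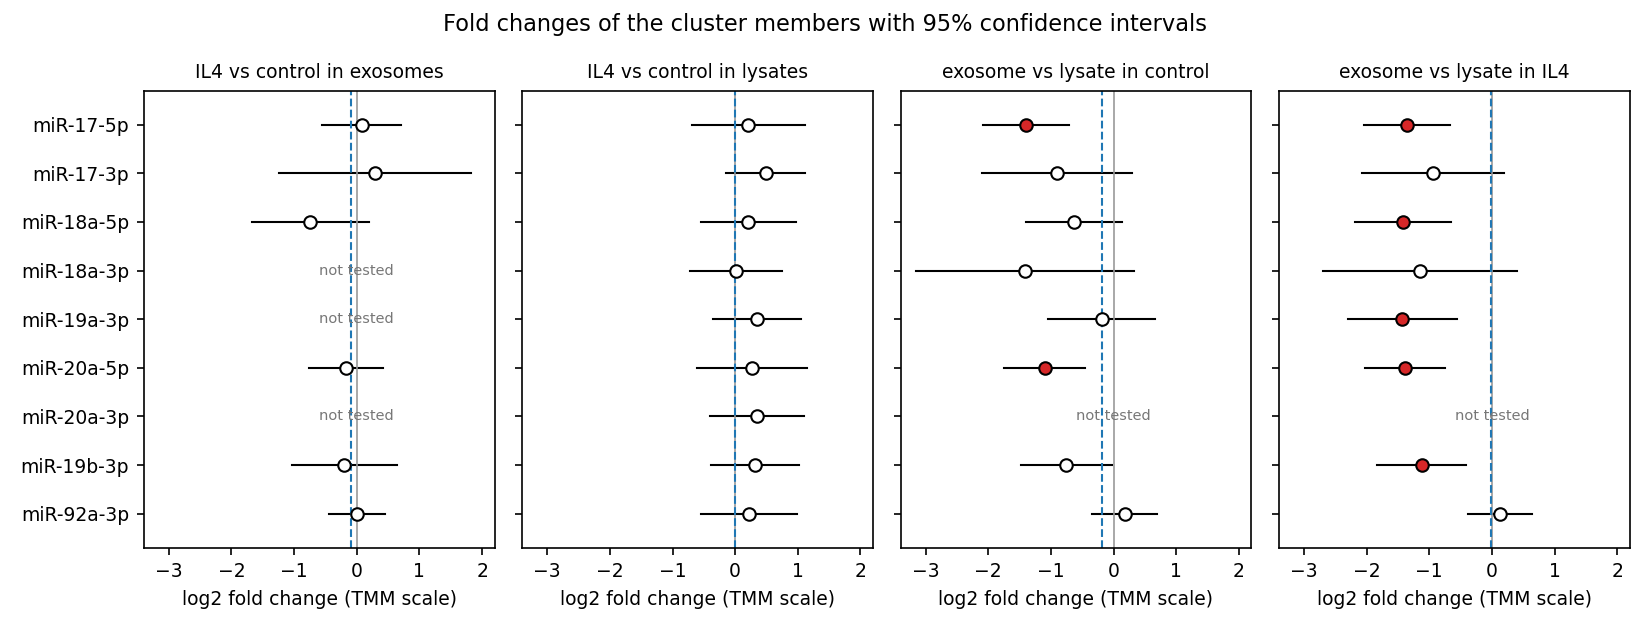
Log2 fold change (TMM scale) of each member in the 4 comparisons, with 95% intervals; filled points have an adjusted p at or under 0.05, the dashed line is the median of all lines tested. In both comparisons of exosomes with lysates miR-92a-3p is near 0 while miR-17-5p and miR-20a-5p are near or below -1; no member is filled in the IL4 comparisons.

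No member passed the test for IL4 in exosomes. Of 6 members with enough counts, 0 were called by edgeR (0 with an unadjusted p under 0.05), against 0.549% of 182 lines, which is 1 line, and 12 lines (6.59%) unadjusted. CPM of the groups overlapped for all 6, against 2.75% of lines that did not overlap and were higher with IL4 and 3.3% that were lower. DESeq2 also called 0 of them. The members' median was -0.08 and that of all lines -0.09. miR-18a-5p had the largest difference. It was at 352, 368, 387 and 246 CPM in control exosome replicates 1 to 4 and at 159.9, 174, 294 and 78.2 CPM with IL4. It was lower with IL4 at 4 of 4 dates, though the groups overlapped, and its log2 fold change was -0.74 (SE 0.42, adjusted p 0.804). In 3 of the IL4 exosome libraries it rested on 6 to 13 counts.

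The ratio of miR-18a-5p to miR-17-5p, 2 miRNAs from neighbouring hairpins, was lower in every IL4 exosome library than in every control one. It was 0.303, 0.385, 0.330 and 0.346 in control replicates 1 to 4 and 0.143, 0.169, 0.299 and 0.122 with IL4. The log2 difference was -0.96 (exact permutation test, p 0.0286, the smallest that 4 against 4 can give), and the adjusted p was 0.229. Among the 16 ratio tests, those of IL4 in lysates cannot go below 0.1. An adjusted p at or under 0.05 was therefore out of reach here, and the adjusted value decides nothing in either direction. Of the 126 lines, 2.38% had a ratio to miR-17-5p that was lower in every IL4 exosome library. miR-92a-3p, miR-20a-5p and miR-19a-3p were also lower in CPM with IL4 at 4 of 4 dates. The share of all lines with that pattern was not counted. Scaled to library totals, as CPM are, the median log2 fold change of all lines was -0.25 in exosomes. The counts of dates, that of miR-18a-5p included, are therefore not a trait shown to be particular to the members. For miR-92a-3p the log2 fold change on the TMM scale was 0.01 (SE 0.20, interval -0.44 to 0.46), so the sign seen in CPM was not kept there. miR-19a-3p was too sparse for the test, at 105.6, 166, 372 and 219 CPM in controls and 99.9, 80.4, 146 and 52.1 CPM with IL4.

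In lysates all 9 members were deep enough to test, and 0 were called (0 with an unadjusted p under 0.05; DESeq2 also called 0). Over all 443 lines 7.22% were called, and 14.2% had an unadjusted p under 0.05. CPM of the groups overlapped for all 9 members, against 8.8% of lines that did not overlap and were higher with IL4 and 15.3% that were lower. All 9 log2 fold changes were above 0, from 0.01 for miR-18a-3p to 0.49 for miR-17-3p (SE 0.28, adjusted p 0.542), with a median of 0.27 against 0.00 for all lines. That common sign was not stable. miR-18a-3p was below 0 in 8 of 13 alternative fits, among them those with library totals and with DESeq2. Without IL4 lysate replicate 1, of 23 January, 6 of the 9 were below 0, among them miR-17-5p (-0.31) and miR-92a-3p (-0.21). In CPM, miR-17-3p and miR-19b-3p were higher with IL4 at 3 of 3 dates, and miR-18a-3p at 0 of 3. The shares of all lines with these patterns were not counted. The ratios between members also overlapped between IL4 and control lysates or could not pass the test, since 3 against 3 cannot go below an exact permutation p of 0.1.

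The IL4 effects in exosomes and lysates were compared as a difference of fold changes. Of 8 members tested 0 were called by edgeR (1 unadjusted), as were 0 of all 338 lines (0.0%), with 14 lines (4.14%) under 0.05 unadjusted. miR-19a-3p differed most, by -1.24 (SE 0.57, unadjusted p 0.0469, adjusted p 0.995), followed by miR-18a-5p with -0.79 (SE 0.51). At these depths differences of this size could not be told from the spread between libraries.

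In CPM the members moved together with date in lysates. The libraries of 23 January, IL4 and control, were both above the 4 other lysates for 9 of 9 members, by 1.77-fold (miR-20a-3p) to 2.39-fold (miR-17-5p) in mean CPM. Over all lines tested in lysates, 28.2% were above on that date. Those of 21 March were below all others for 5 of 9 members, against 10.8% of lines. TMM factors, which multiply library totals, were 0.959 (control) and 0.921 (IL4) on 23 January and 0.592 to 0.717 in the other lysates. The gap of 23 January is therefore smaller on the TMM scale, where the positions of members by date were not counted. The ratio of miR-20a-5p to miR-17-5p stayed between 0.984 and 1.17 over the same lysates. This seed pair thus kept its proportion while its CPM differed by over 2-fold. In exosomes no date stood apart for more than 1 of 6 members. The labels do not say what a date marks, and what else differed between the dates was not tested.

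**Figure D5:**
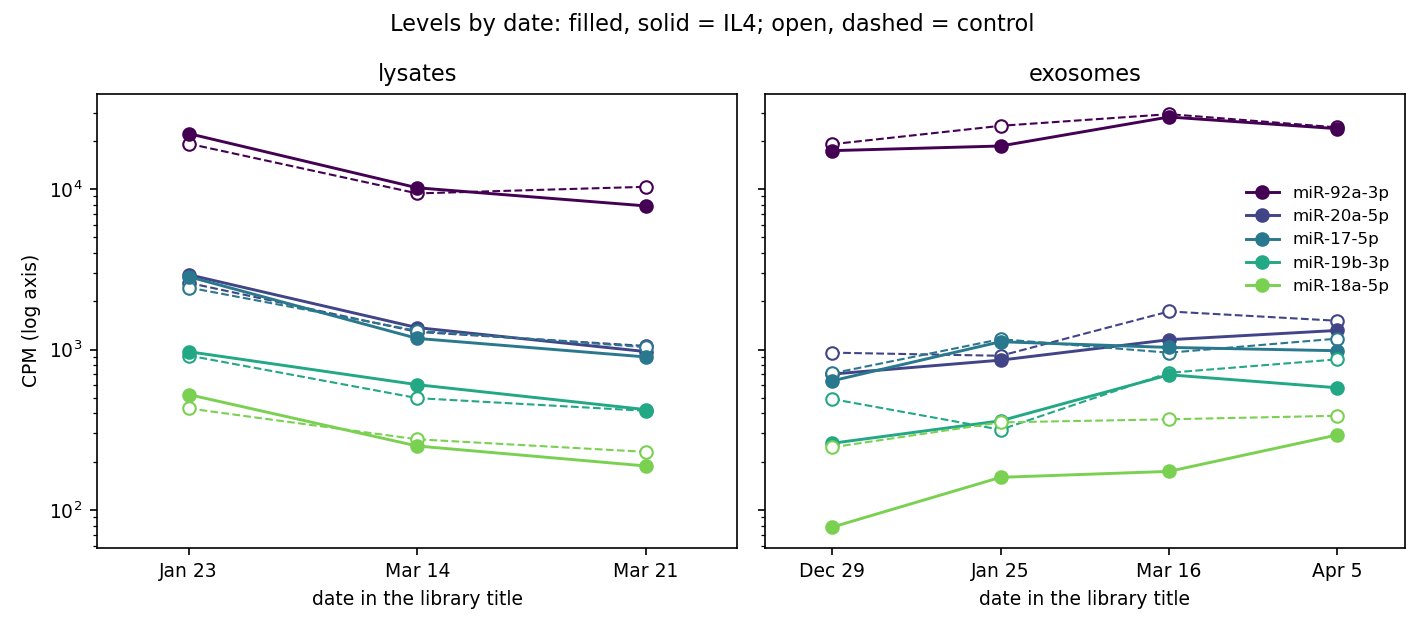
CPM (log axis) of 5 members by the date in the library title, for lysates (left) and exosomes (right); filled points with solid lines are IL4 and open points with dashed lines control. In lysates all 5 members are highest on 23 January in both groups; in exosomes miR-18a-5p is lower with IL4 at every date.

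The arms of a hairpin were kept in very unequal amounts, and differently from hairpin to hairpin. miR-17-3p made up 10.1% (exact binomial 95% interval 9.73% to 10.4%, over pooled counts) of the miR-17 counts in control lysates, and 11.6% with IL4. In exosomes the pooled share was 9.47% (6.72% to 12.9%) in controls and 14.6% with IL4. The control value rested on replicate 3, where miR-17-3p had 9 counts against 233 (3.72%). Its share was 19.5%, 23.5% and 10.3% in replicates 1, 2 and 4. In pools without replicate 3 the share was 19.6% in controls (27 miR-17-3p counts) and 16.9% with IL4 (37 counts). That difference was not tested. miR-18a-3p made up 12.4% of the miR-18a counts in control lysates and 7.20% (3.35% to 13.2%) in control exosomes. miR-20a-3p was far rarer, at 0.795% (0.698% to 0.903%) of the miR-20a counts in control lysates, and had 2 counts against 456 in control exosomes. The seed pair miR-17-5p and miR-20a-5p, alike in sequence and level, came with 3p partners at 179 and 13.1 CPM in control lysates. Intervals cover counting error only, and within lysates each arm share rests on 3 libraries.

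Close relatives of the members are encoded in the clusters Mir106a to Mir363 on chromosome X and Mir106b to Mir25. Most lines of the chromosome X copy that can be told apart had few counts. miR-106a-5p, which differs from miR-17-5p by U10A alone, had 68 counts over all 14 libraries against 55470 for miR-17-5p. miR-20b-5p had 98 counts and miR-18b-5p, which differs from miR-18a-5p by A18U and A20U, had 16. miR-92a-2-5p, the other arm of the chromosome X miR-92a hairpin, had 1 count. These sums are mostly of the deep lysates. miR-363-3p of the same cluster was at 0.266 ± 0.15 CPM in control lysates (SD, n = 3) but at 52.7 ± 48.0 in control and 35.4 ± 13.9 CPM in IL4 exosomes (SD, n = 4), above the means of miR-18a-3p there. Reads of miR-19b-3p and miR-92a-3p themselves fit both loci, and the counts cannot be split between them.

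The miR-106b/25 cluster shared seeds with the members at comparable levels. Of all counts with the seed AAAGUGC, miR-17-5p and miR-20a-5p held 18.9% ± 2.14 in control and 20.8% ± 3.20 in IL4 exosomes (SD, n = 4) and 25.9% ± 4.92 in control and 31.0% ± 5.52 in IL4 lysates (SD, n = 3). miR-93-5p was the most abundant miRNA of that seed. It too was called lower in exosomes than in lysates, by edgeR at -0.73 (SE 0.17, adjusted p 0.00204) in control and -0.62 (SE 0.17, adjusted p 0.00667) in IL4 samples, a smaller value than that of miR-17-5p. That direction rests on TMM scaling, since its mean CPM was 7046 ± 647 in control exosomes and 6866 ± 1506 in control lysates, and 5336 ± 582 and 5316 ± 1892 with IL4. miR-106b-5p was at -0.37 and -0.36 and was not called. Of the seed AUUGCAC, miR-92a-3p held 73.6% to 80.4% in the group means, with miR-25-3p most of the rest, and miR-25-3p was at -0.21 and 0.03 and not called. The rare miRNAs of that seed were called higher in exosomes, miR-32-5p at 2.85 and 2.28 and miR-92b-3p at 3.12 and 2.53. Each lysate held 66 or more and 25 or more counts of them. Exosome libraries held fewer, from 4 to 59 counts of miR-32-5p and from 0 to 53 of miR-92b-3p. miR-363-3p was called higher too but rested on 5 counts in control and 19 in IL4 lysates, against 14 and 20 in exosomes.

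Over the 14 libraries the line whose level ran most like that of miR-17-5p was its seed partner. The root mean square difference of centred log2 CPM was 0.30 for miR-20a-5p, 0.33 for miR-7a-5p and 0.35 for miR-351-5p, among 337 other lines. miR-92a-3p was rank 87 in that order. Lines most like miR-92a-3p were miR-25-3p (0.36), of the same seed, miR-106b-5p (0.41) and miR-15b-3p (0.41). No other member of its own cluster was nearer to miR-92a-3p than rank 48, which miR-19b-3p held.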

How the data were processed

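Raw counts per mature miRNA, in 1 deposited table of 14 libraries and 1250 lines, were used as the authors deposited them. Per the submitters' processing notes cutadapt and mm10 were used; how reads were aligned and counted, with or without strand, is not given in the sources used here, so near copies such as miR-17-5p, miR-106a-5p and miR-20b-5p may share reads. Columns were matched by title and 0 were left unused; every pair of libraries in a group differed beyond sampling noise (chi-square over its degrees of freedom at least 21.0).

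Tests used edgeR 4.0.16 in R 4.3.3 on the whole table (filterByExpr, minimum count 10, TMM, quasi-likelihood, Benjamini-Hochberg, threshold 0.05). IL4 was fitted within exosomes (182 lines) and lysates (443), the compartments in 1 fit of 14 libraries (338). SE is the log2 fold change over the root of F. Ratios used a pseudocount of 0.5, at least 5 counts in every library and exact permutation tests (scipy 1.17.1). DESeq2 1.42.0, scalings, filters, left-out libraries and the date block were alternatives, and leaving out all libraries of 23 or 25 January, and dates as units, were added after seeing the data. The pairing by date comes from the titles: IL4 and control libraries of 1 date deviated together (r 0.185 to 0.724 over tested lines), though r between different dates ran from -0.680 to 0.325 and so passed some same-date values. The named lines were all members, the other arms, relatives and the nearest lines. Members, lists and tests were chosen with earlier results of these data known. The smallest exosome library resolves 35.2 CPM per count. PCR reads are not independent molecules.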

Additional observations from a re-analysis of the deposited data

Results flagged for a closer look

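In control exosomes, the log2 ratio of miR-19b-3p to miR-17-5p in replicate 1 (25 January) was -1.82, from 9 and 33 counts, while the other 3 libraries lay between -0.52 and -0.41. The gap to the nearest library was 0.923 of the whole range, which is past Dixon's 95% limit for 4 samples. The IL4 exosomes of the same date had a low ratio too, at -1.61. Of the 38 groups of values checked this was 1, and chance alone passes about 1 in 20.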

How the results depend on the processing

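The counts of 0 members called for IL4 in exosomes, IL4 in lysates and their difference held under every scaling, filter, left-out library and the date as replicate block, which changed no member's call. For exosomes against lysates, 2 members were called in control samples. That count was 1 with library totals (miR-92a-3p as higher, neither of the 2), 1 with DESeq2 size factors, 1 with DESeq2 and 1 without both lysates of 23 January (each time miR-17-5p), 3 without a filter (miR-19b-3p added), and 1 to 2 with 1 library left out. With IL4 the count of 5 was 0 with library totals and 2 without both lysates of 23 January (miR-20a-5p of the 5, and miR-92a-3p as higher), and ran from 0 to 5. No paired analysis was possible because exosomes and lysates share no date; causes were not tested.

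Of the values whose sign turned, the largest were -0.63 for miR-18a-5p and -0.75 for miR-19b-3p in control exosomes against lysates. Library totals gave -0.094 for miR-17-5p and -0.15 for miR-92a-3p under IL4 in exosomes, -0.19 for miR-18a-3p in lysates, and 0.13 for miR-18a-5p, 0.60 for miR-19a-3p and 0.011 for miR-19b-3p in control exosomes against lysates. In that comparison miR-19a-3p was 0.17 with DESeq2 size factors, 0.20 with DESeq2, 0.026 in a fit of 7 libraries, 0.0010 without both lysates of 23 January and -0.39 to 0.24 with 1 library left out. Without a filter miR-92a-3p was -0.32 in control and -0.16 in IL4 samples. Under IL4 in lysates miR-18a-3p was -0.020 with DESeq2 size factors, -0.020 with DESeq2, -0.014 without a filter and -0.075 in a fit of 14 libraries, and miR-18a-5p was -0.021 without both lysates of 23 January.

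With 1 library left out, IL4 log2 fold changes in exosomes ran from -0.016 to 0.40 (miR-17-5p), -0.028 to 0.83 (miR-17-3p), -0.21 to 0.11 (miR-20a-5p) and -0.24 to 0.15 (miR-19b-3p). In lysates they ran from -0.31 to 0.52 (miR-17-5p), -0.21 to 0.39 (miR-18a-5p), -0.27 to 0.32 (miR-18a-3p), -0.18 to 0.62 (miR-20a-5p), -0.029 to 0.52 (miR-20a-3p) and -0.21 to 0.49 (miR-92a-3p).

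The log2 ratio of miR-92a-3p to miR-17-5p between compartments ran from 1.46 to 1.59 with 1 library left out, with adjusted p (exact permutation test) up to 0.0305. It was 1.47 without both lysates of 23 January and 1.63 without both exosome libraries of 25 January. With dates as units it was 1.51, where the adjusted p of 0.229 could not have passed the threshold. Its IL4 difference ran from -0.14 to 0.10 in exosomes (0.032 without those of 25 January) and from -0.080 to 0.16 in lysates. In lysates that of miR-18a-5p over miR-17-5p ran from -0.10 to 0.066 and of miR-20a-5p over miR-20a-3p from -0.18 to 0.21 (0.15 without 23 January, where miR-18a-5p over miR-18a-3p was -0.062).

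With miR-21a-5p out of the total, the cluster's share was 3.57% in control exosomes, 3.36% in IL4 exosomes and 2.88% in IL4 lysates. With miR-19b-3p and miR-92a-3p out of the cluster, miR-17-5p took 33.0% and 39.2% in control and IL4 exosomes and 40.3% and 38.7% in control and IL4 lysates, and miR-20a-5p 41.5%, 41.5%, 41.3% and 42.1%.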
